A study of Mus musculus with 7 samples.

Results

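Interferon-high cells are myeloid cells of the infarcted mouse heart in which transcripts of interferon-stimulated genes take an unusually large share of all RNA molecules counted. They come from a pool of CD11b+ heart cells taken 1, 3 or 5 days after the left coronary artery of the mice had been tied off for good. A cell was a member when 12 genes (Ifit1, Ifit2, Ifit3, Isg15, Rsad2, Cmpk2, Oasl1, Oasl2, Usp18, Irf7, Ifi44 and Mx1) together held at least 0.15% of its unique molecular identifiers (UMIs), each of which stands for 1 captured RNA molecule. Cells also needed under 200 UMIs of the antibody against the neutrophil protein Ly6G, at least 200 genes, at most 10% mitochondrial UMIs and an unambiguous hashtag. Of 5862 barcodes in the pool, 4835 passed the quality limits, 4416 had a hashtag call and 2866 were below the Ly6G limit. Of these 2866 cells, 212 were interferon-high and the other 2654 served as the comparison. The whole series held 22630 barcodes.

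All animals were male C57BL6/J mice, and the labels give no genetic change and no age. Hashtag 1 marked day 1 (5 mice), hashtag 2 day 3 (5 mice) and hashtag 3 day 5 (3 mice), and only viable cells left unstained by a CD45.2 antibody given into the vein, which marks cells inside vessels, were sorted. The mice of a day were pooled before sequencing, so a day is 1 hashtag and has no replicate mice. The same 12 genes and the same limit were then applied to monocytes/macrophages of 5 separate libraries of CD45+ heart cells, from steady state (5 mice, no infarct) and from days 1 (5 mice), 3 (5 mice), 5 (5 mice) and 7 (3 mice). A step that lowered neutrophil numbers preceded that sort. The blood and heart pool of the series was not analysed here.

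Type I interferons are secreted proteins that bind the receptor Ifnar1/Ifnar2 on neighbouring cells. The receptor's kinases activate transcription factors such as Stat2, which with Irf9 binds a DNA element called the interferon-stimulated response element in the promoters of many genes. Their products block viral replication, sense nucleic acids, present antigen and attract lymphocytes. In the infarcted heart, DNA released by dying cells is a known trigger of this pathway in infiltrating macrophages.

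The promoters of the 3 genes by which these cells are known (Ifit3, Rsad2 and Cxcl10) and of the 3 genes outside the rule with the largest differences among those with a mean of at least 50 CPM in the members (Ifit1bl1, Ifit3b and Ifi206) are printed first, because each holds the letters of the element through which the pathway acts. Each run gives the 250 bases before the RefSeq transcript start on the gene's own strand (build GRCm38.p6). Capitals mark matches to GAAANNGAAA, a core of the response element, on either strand, so a match on the opposite strand reads TTTCNNTTTC.
Ifit3 (chr19:34583279-34583528, plus strand): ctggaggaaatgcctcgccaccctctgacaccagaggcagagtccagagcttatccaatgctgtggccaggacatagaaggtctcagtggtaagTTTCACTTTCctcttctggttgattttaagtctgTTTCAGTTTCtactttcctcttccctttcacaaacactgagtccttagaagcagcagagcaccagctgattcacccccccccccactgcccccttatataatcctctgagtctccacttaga
Rsad2 (chr12:26456453-26456702, minus strand): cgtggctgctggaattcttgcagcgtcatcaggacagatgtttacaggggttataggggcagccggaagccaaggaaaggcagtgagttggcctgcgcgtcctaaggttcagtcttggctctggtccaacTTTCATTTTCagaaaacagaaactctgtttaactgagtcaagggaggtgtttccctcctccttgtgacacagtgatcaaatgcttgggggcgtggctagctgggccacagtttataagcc
Cxcl10 (chr5:92348890-92349139, minus strand): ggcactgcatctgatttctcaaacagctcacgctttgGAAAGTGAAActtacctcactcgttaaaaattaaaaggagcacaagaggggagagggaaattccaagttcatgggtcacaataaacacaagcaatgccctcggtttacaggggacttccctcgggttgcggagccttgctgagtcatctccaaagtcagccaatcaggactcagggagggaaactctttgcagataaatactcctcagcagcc
Ifit1bl1 (chr19:34599428-34599677, minus strand): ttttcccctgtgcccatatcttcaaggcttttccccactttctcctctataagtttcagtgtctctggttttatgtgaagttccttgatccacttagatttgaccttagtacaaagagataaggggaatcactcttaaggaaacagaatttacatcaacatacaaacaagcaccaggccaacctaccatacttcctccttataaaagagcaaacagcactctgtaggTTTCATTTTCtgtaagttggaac
Ifit3b (chr19:34607707-34607956, plus strand): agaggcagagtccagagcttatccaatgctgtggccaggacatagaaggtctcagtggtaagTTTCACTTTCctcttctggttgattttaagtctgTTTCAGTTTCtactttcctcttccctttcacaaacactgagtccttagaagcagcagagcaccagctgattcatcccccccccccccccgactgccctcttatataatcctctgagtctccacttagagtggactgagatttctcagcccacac
Ifi206 (chr1:173491319-173491568, minus strand): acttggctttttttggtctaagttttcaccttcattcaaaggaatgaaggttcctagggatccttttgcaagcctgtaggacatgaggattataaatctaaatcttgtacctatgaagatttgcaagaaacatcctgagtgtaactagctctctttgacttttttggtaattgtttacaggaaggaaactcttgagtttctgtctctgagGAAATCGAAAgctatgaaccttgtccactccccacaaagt
Ifit3 and Ifit3b hold 2 matches each, and the other 4 promoters hold 1. The matches of Ifit3 lie between 156 and 113 bases before the start, and that of Cxcl10 between 213 and 204. For Ifit1bl1 the table lists 2 promoters, of which the printed one has the match.

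The search covered 300 bases per promoter, 250 before and 50 after each start. The response element letters occurred in 3.44% of all 32851 RefSeq promoters. Among the genes of the comparison below that had a promoter in the table, 4.10% of the 7705 tested held a match. Of the genes higher in interferon-high cells 18.7% did (76 of 407), and of those at least 2-fold higher 30.2% did (61 of 202). Of the genes lower in them 2.56% did (2 of 78). Of the 12 rule genes, 10 had a promoter in the table and 4 of these held a match. These shares describe letters in a window and are not binding sites.

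The 12 rule genes were used to choose the cells, so their values are a description. Sums over cells are given as CPM, a gene's UMIs per 1000000 UMIs of the same day and group. Isg15, a ubiquitin-like protein attached to other proteins during antiviral responses, stood at 1465, 1420 and 1205 CPM in interferon-high cells on days 1, 3 and 5. In the other cells it stood at 114, 82 and 46.4 CPM. Rsad2, an enzyme that makes a chain-terminating nucleotide, stood at 703, 804 and 1196 CPM against 12.6, 18.6 and 14 CPM. Irf7, the transcription factor that amplifies interferon production, stood at 747, 574 and 637 CPM against 66.3, 54.1 and 41.0 CPM. Ifit3, whose protein binds foreign RNA together with Ifit1, stood at 113, 305 and 362 CPM against 2.10, 3.38 and 3.20 CPM. The lowest interferon-high value lay above the highest value of the other cells for each of these genes.

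Single members differed in how many rule genes they carried. The median interferon-high cell had UMIs of 8 of the 12 genes (quartiles 5 and 10), and the median other cell of 2. The groups overlapped: 26 members had UMIs of under 3 rule genes, while 148 members and 164 of the other cells had UMIs of at least 6. Isg15 had the most UMIs among the 12 in 130 of the 212 cells, Rsad2 in 42 and Irf7 in 19. The rule genes took a median of 0.276%, 0.306% and 0.329% of a member's UMIs on days 1, 3 and 5, against 0.0180%, 0.0115% and 0.00716% in the other cells. The limit did not fall in a gap: 53 cells lay between 0.15% and 0.20%, and 86 between 0.10% and 0.15%. The nearest member had 34 rule UMIs of 22618, and the nearest cell outside had 42 of 28020.

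**Figure D1:**
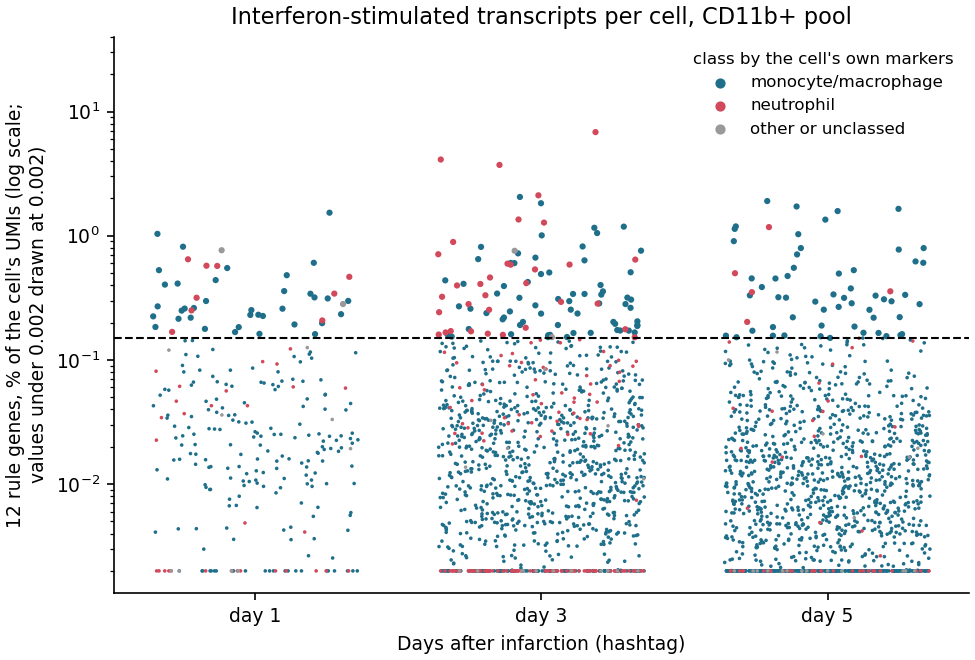
Share of a cell's UMIs that came from the 12 rule genes (log scale, percent) in 2866 Ly6G-antibody-low cells by day, coloured by the class of the cell's own marker genes, with the 0.15% limit as a dashed line. The shares run on across the limit without a gap, and the 4 highest members, all of day 3, carry neutrophil markers.

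The name monocytes/macrophages fitted most members. By summed UMIs of marker genes (such as Csf1r, C1qa and Ly6c2 against Csf3r, Cxcr2 and Retnlg), 161 of 212 members were monocytes/macrophages (75.9%), 47 were neutrophils (22.2%), 2 were dendritic cells and 2 had no class. None was a lymphocyte. Of the other 2654 cells, 90.0% were monocytes/macrophages and 8.29% neutrophils. The neutrophil share of the members was 9 of 48 on day 1, 33 of 103 on day 3 and 5 of 61 on day 5. The 4 cells with the highest rule shares (6.83%, 4.11%, 3.72% and 2.12%) were all day 3 cells with neutrophil markers. Neutrophil-type members had a median of 2168, 3022 and 3461 UMIs on days 1, 3 and 5, and monocyte/macrophage members 16313, 27073 and 26191. Their Ly6G antibody medians were 153 and 107 UMIs, against 341 UMIs in the 1550 cells left out by the Ly6G limit. The members are therefore called interferon-high cells, and gene groups below are also given for monocytes/macrophages by their own markers alone.

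Interferon-high cells became a smaller part of the Ly6G-antibody-low cells from day to day. They made up 17.3% on day 1 (48 of 277 cells, exact 95% interval 13.1% to 22.3%), 8.53% on day 3 (103 of 1207, 7.02% to 10.3%) and 4.41% on day 5 (61 of 1382, 3.39% to 5.63%). The intervals cover counting error only and do not overlap, and with 1 hashtag a day there is no test between days. Among monocytes/macrophages by their own markers the shares were 16.3%, 6.71% and 4.28%. With every Ly6G-antibody-low cell thinned to 5000 UMIs the shares were 15.4%, 7.05% and 4.38%, leaving out 50 of 277, 200 of 1207 and 104 of 1382 shallower cells. Those left out were 12 of 48, 39 of 103 and 4 of 61 members. Among the other cells they were 38 of 229, 161 of 1104 and 100 of 1321. Median depth was 13185.5, 20178 and 22618 UMIs in members and 20813, 25454.5 and 27244 UMIs in the other cells.

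In the CD45+ libraries the shares ran another way. Interferon-high cells were 3.15% of monocytes/macrophages at steady state (19 of 603, exact 95% interval 1.91% to 4.88%), 12.1% on day 1 (27 of 223), 12.6% on day 3 (83 of 657), 15.8% on day 5 (127 of 803) and 5.89% on day 7 (43 of 730). The day 5 interval (13.4% to 18.5%) lay above that of the pool's monocytes/macrophages on day 5 (3.25% to 5.52%), while the day 1 intervals overlapped. With each monocyte/macrophage thinned to 2000 UMIs, the shares on days 1, 3 and 5 were 14.2%, 18.9% and 19.6% in the CD45+ libraries and 18.8%, 10.3% and 5.70% in the pool. The experiments differed in sort, chemistry and mice, which cannot be told apart here. At most 2 cell barcodes were shared by any pair of libraries.

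**Figure D2:**
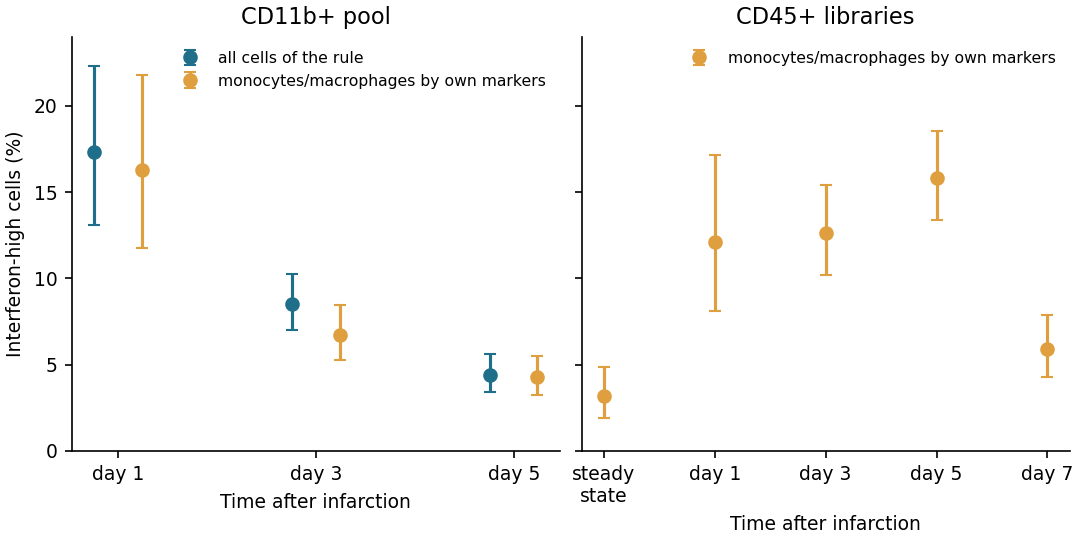
Interferon-high cells as a percent of the cells they were drawn from, by time after infarction, in the CD11b+ pool (left) and the CD45+ libraries (right); points are 1 hashtag or library and bars are exact 95% binomial intervals. The share fell from 17.3% to 4.41% in the pool between days 1 and 5 and stood at 12.1%, 12.6% and 15.8% on the same days in the CD45+ libraries.

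To describe what else differs in these cells, UMIs were summed per day for members and for other cells, and the 6 sums were fitted in edgeR with the hashtag as a block. A positive log2 difference means higher in interferon-high cells. Errors are standard errors of the edgeR fit, in which a gene's variance is drawn toward that of other genes. They are not the spread of a gene's own day values, which can be wider. Of 9546 genes tested outside the rule, 500 were higher (5.24%) and 92 were lower (0.964%) at an edgeR adjusted p under 0.05. The cells were chosen on 12 genes read from the same cells, so genes that vary with those 12 from cell to cell differ by the choice itself, and these counts are a description of the members. The same holds for the CD45+ libraries below, where the same genes and limit chose the members. Of the 500 higher genes, 492 were higher on all 3 days, 250 by at least 2-fold and 34 by at least 8-fold. Of the 92 lower genes, 89 were lower on all 3 days and 14 by at least 2-fold. With monocytes/macrophages by their own markers alone, 447 of 9420 genes were higher (4.75%) and 78 lower (0.828%). Of the 500 and 92, 431 and 64 were also called there. Both counts depended on single days: 313 genes were higher and 26 lower without day 5, and 23 were lower without day 3.

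Antiviral effector genes outside the rule moved together. Of 63 listed, 62 were tested and 60 were higher, with a median log2 difference of 2.53 against -0.035 over all genes tested, and none was lower. Ifitm1 and Ifitm2, relatives of the membrane protein Ifitm3 that hinders virus entry, did not pass (log2 differences 0.31 and 0.26). In monocytes/macrophages alone 59 of 61 were higher, with a median of 2.51. The CD45+ libraries had 56 of 59 higher, with a median of 2.03.

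The largest difference was that of Ifit1bl1, a relative of Ifit1, which lies at chr19:34592891-34601956 (GENCODE M21 on GRCm38). It stood at 23.7, 70.6 and 55.7 CPM in interferon-high cells on days 1, 3 and 5. In the other cells it had 0 of 4752101 UMIs on day 1, which allows up to 0.631 CPM, and 0.191 and 0.203 CPM on days 3 and 5. The fitted log2 difference was 8.31 ± 0.29 (edgeR adjusted p = 4.4e-09), a size that depends on the small amount added to zero counts. Ifit3b (chr19:34607970-34613401) stood at 32.6, 62.8 and 56.3 CPM against 0, 0.702 and 0.534 CPM, a log2 difference of 6.71 ± 0.28 (edgeR adjusted p = 1.2e-08). Ifit3b and Ifit3 have near-identical sequence, also in the promoters printed above, and how reads were split between such copies is not given in the sources used here. The same holds among the Ifi20x, Phf11, Gbp and Oas1 gene clusters and the H2-T and H2-Q genes.

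The genes named next are the 15 with the largest higher differences among called genes of 1 sign on all 3 days and a mean of at least 50 CPM in interferon-high cells. Genes below that level could differ more: Ifi208 had a log2 difference of 6.69 ± 0.43 at 17.8, 20.8 and 27.9 CPM against 0.210, 0.0638 and 0.407 CPM. Of the 15, 3 belong to the p200 family, whose proteins bind DNA in the nucleus and cytosol. Ifi206 stood at 78.6, 75 and 87.6 CPM against 3.58, 5.01 and 2.85 CPM, a log2 difference of 4.44 ± 0.21 (edgeR adjusted p = 3.4e-08). Ifi213 rose by 4.18 ± 0.17 and Ifi205 by 3.73 ± 0.28 on the log2 scale. Ifi206, Ifi213 and Ifi205 each hold a response element match in a listed promoter.

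Interferon-inducible GTPases, which attack the vacuoles of intracellular microbes, were also among the 15. Ifi47 stood at 142, 189 and 196 CPM in interferon-high cells and at 11.4, 14.5 and 10.5 CPM in the others. Gbp2 stood at 90.4, 94.9 and 133 CPM against 4.42, 9.57 and 7.91 CPM. Irgm1 and Igtp rose by 3.26 ± 0.13 and 3.22 ± 0.20 on the log2 scale. For each of these 4 genes every interferon-high value exceeded every value of the other cells.

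The rest of the 15 were Isg20, a nuclease that degrades single-stranded RNA (log2 difference 3.89 ± 0.20), Oas3, which makes the second messenger that activates RNase L (3.45 ± 0.18), Herc6, the ligase that attaches Isg15 (3.45 ± 0.17), Phf11d (3.37 ± 0.17), Phf11a (3.24 ± 0.25) and the chemokine Cxcl10. Among effectors with smaller called differences, Bst2, which tethers virus particles to the membrane, stood at 835, 726 and 703 CPM against 232, 296 and 247 CPM, a log2 difference of 1.58 ± 0.12. Ifitm3 stood at 3976, 3610 and 2596 CPM against 2115, 1567 and 736 CPM (1.35 ± 0.15).

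**Figure D3:**
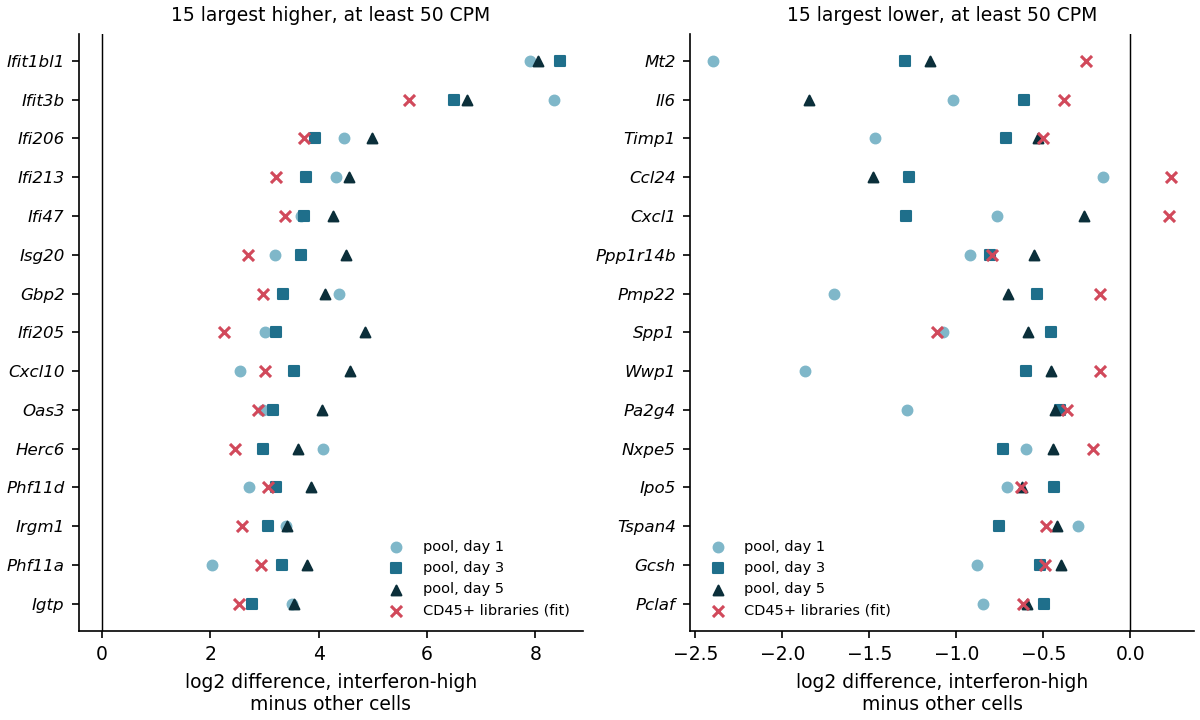
Log2 difference between interferon-high and other cells for the 15 called genes outside the rule with the largest higher and lower differences, among genes of 1 sign on all 3 days with a mean of at least 50 CPM where higher; symbols are single days of the pool and crosses are the fit over 5 CD45+ libraries. Day values of the higher genes lie between 2.04 and 8.45, and 2 of the lower genes (Ccl24 and Cxcl1) have a positive CD45+ value; Ifit1bl1 was not tested there.

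Part of the interferon signalling genes rose, and the receptor chains did not pass. Of 18 genes of interferon reception and signalling, 7 were higher and none lower, with a median log2 difference of 0.32 against -0.035 over all genes. Stat2 stood at 81.5, 80.6 and 102 CPM against 13.9, 15.4 and 12.5 CPM, a log2 difference of 2.71 ± 0.15 (edgeR adjusted p = 1.1e-07). Irf9, its partner in DNA binding, rose by 1.00 ± 0.14. Irf1 (1.04 ± 0.12) and Socs1 (1.35 ± 0.20), a feedback inhibitor of the receptor kinases, were higher as well. In monocytes/macrophages alone 7 of 18 were also higher, with Irf8 in place of Jak2. The kinases Jak1 (0.16) and Tyk2 (0.17) did not pass. Irf2 and Jak2, called in all members, were lost without day 3 (log2 differences 0.55 and 0.44) and without day 5 (0.45 and 0.44).

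Ifnar1, a chain of the type I interferon receptor, stood at 123, 101 and 95.8 CPM in interferon-high cells and at 96.4, 93.8 and 98.4 CPM in the others. Its log2 difference was 0.16 ± 0.11 (edgeR adjusted p = 0.52). Ifnar2 (0.083 ± 0.10) and the interferon gamma receptor chain Ifngr1 (0.0029 ± 0.12) did not pass either. The groups overlapped for all 3 receptor chains. Of the 18 genes, 3 were higher in the CD45+ libraries, among them Stat2 and Irf9, and none lower.

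Transcripts of the interferons themselves were absent from the counts of the members. None of the 20 interferon ligand genes had a UMI among the 4705473 UMIs of interferon-high cells, which allows up to 0.638 CPM for each gene. The other cells held 16 such UMIs among 75413265, of which 11 were Ifnb1. No ligand could therefore be tested, and at this depth a low level in the members is not detectable.

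Sensors of foreign nucleic acid, which start interferon production, rose in part. Of 16 listed, 14 were tested, 8 were higher and none was lower, with a median log2 difference of 0.66. The cytosolic RNA sensors Ifih1, Ddx58, Ddx60 and Dhx58 had the largest differences among the 8. Ifih1 (MDA5) stood at 117, 103 and 120 CPM against 20.6, 20.2 and 17.9 CPM, a log2 difference of 2.57 ± 0.12. Ddx58 (RIG-I) stood at 86.0, 123 and 139 CPM against 20.2, 19.4 and 15.3 CPM (2.79 ± 0.17), and Ddx60 and Dhx58 rose by 3.15 ± 0.18 and 2.26 ± 0.17. Mb21d1, the DNA sensor cGAS, rose by 1.17 ± 0.18. Its adaptor Tmem173 (STING) had a log2 difference of 0.23 and did not pass. The endosomal RNA sensor Tlr7 (0.57 ± 0.13), Tlr3 (1.74 ± 0.33) and the adaptor Myd88 (0.72 ± 0.13) each lost their call without day 3 (0.62, 1.67 and 0.67) and without day 5 (0.51, 1.46 and 0.61). The count was also 8 of 14 in monocytes/macrophages alone. Of the 12 sensors tested in the CD45+ libraries, 5 were higher.

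Chemokines moved in both directions. Of 15 tested, 4 were higher and 2 lower, with a median log2 difference of 0.31. Cxcl10 (chr5:92346638-92348889), which attracts T cells through Cxcr3, stood at 159, 530 and 938 CPM in interferon-high cells on days 1, 3 and 5 and at 27.8, 46.7 and 40.2 CPM in the others. Its log2 difference was 3.71 ± 0.28 over the 3 days (edgeR adjusted p = 1.9e-06) and 2.55, 3.54 and 4.59 on the single days. The 10 cells with most Cxcl10 UMIs held 95.3%, 81.4% and 84.1% of the members' UMIs on days 1, 3 and 5, so the level and its course over the days rest on few cells. Ccl4, an attractant of monocytes and T cells, rose by 0.88 ± 0.13, from 1008, 864 and 680 CPM to 1570, 1346 and 1614 CPM.

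Ccl12, a ligand of the monocyte receptor Ccr2, did not have the same direction on each day. It stood at 243, 1106 and 750 CPM in interferon-high cells against 279, 303 and 173 CPM, and its difference of 1.41 ± 0.32 lost its call without day 5 (0.97). Ccl8 had 0 of 674527 UMIs on day 1, which allows up to 4.45 CPM, and 300 and 562 CPM on days 3 and 5, against 12.6, 61.3 and 186 CPM. A single monocyte/macrophage of day 3 held 26.9% of the Ccl8 UMIs of the members, and 5 cells held 72.7%. A Ccl8 UMI was found in 16.5% of members and 25.7% of other cells, so its level rests on few cells. The call of Ccl8 (log2 difference 1.73 ± 0.33) was lost without day 3 (1.14), and the difference was -1.30 among cells with under 100 Ly6G antibody UMIs. The other Ccr2 ligands, Ccl2 (0.52 ± 0.15) and Ccl7 (0.48 ± 0.23), did not pass.

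Cxcl1, a neutrophil attractant, was lower at 323, 199 and 331 CPM against 565, 499 and 410 CPM. Its log2 difference was -0.77 ± 0.16 (edgeR adjusted p = 0.01), and -0.50 without day 3, where it was not called. Ccl24 (-0.78 ± 0.21) was lost without day 3 and without day 5 (-0.61 in each) and was 0.65 with cells thinned to 5000 UMIs. With monocytes/macrophages alone 5 chemokines were higher, Ccl2 added, and Cxcl1 was lower. Of the 15 chemokines, 3 were higher in the CD45+ libraries (Cxcl10, Ccl12 and Ccl4) and none lower. DESeq2 called 2 chemokines higher and 2 lower in the pool.

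Of 17 tested cytokines and immune ligands 6 were higher and 1 lower, with a median of 0.36. Il15, which sustains natural killer and memory T cells, stood at 19.3, 19.9 and 34.2 CPM against 3.16, 7.37 and 8.70 CPM, a log2 difference of 1.88 ± 0.24. Its carrier Il15ra rose by 1.93 ± 0.31. Il18 (1.63 ± 0.14) and its soluble inhibitor Il18bp (1.88 ± 0.23) were both higher. Cd40 (1.42 ± 0.15), a costimulatory receptor, and Cd274 (0.94 ± 0.12), the checkpoint ligand PD-L1, completed the list. Monocytes/macrophages alone had 6 of 16 higher and 1 lower, and in the CD45+ libraries 4 of 15 were higher. Tnf (0.29), Il1b (0.23) and Il10 (0.022) did not pass. Il6, the inflammatory cytokine, was lower at 84.5, 21.7 and 2.32 CPM against 177, 34.2 and 9.67 CPM. Its log2 difference of -0.94 ± 0.17 was -0.84 and not called without day 1, and 0.68 among cells with under 100 Ly6G antibody UMIs.

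Genes of MHC class I presentation rose almost as a whole, by less than the effectors. Of 19 tested, 17 were higher and none lower, with a median log2 difference of 0.95. In monocytes/macrophages alone the count was also 17 of 19, and in the CD45+ libraries 12 of 19. Tap1, a subunit of the pump that loads peptides, stood at 168, 148 and 153 CPM against 42.9, 42.5 and 36.5 CPM, a log2 difference of 1.98 ± 0.11 (edgeR adjusted p = 1.3e-07). H2-T22, a nonclassical class I chain, stood at 176, 141 and 134 CPM against 33.7, 38.5 and 40.7 CPM (1.99 ± 0.13). Psmb9, an immunoproteasome subunit, rose by 1.42 ± 0.11, and Nlrc5, the transcriptional activator of class I genes, by 1.72 ± 0.22.

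H2-K1, a classical class I chain, stood at 1551, 1236 and 1276 CPM against 846, 891 and 1003 CPM (0.60 ± 0.11), and the light chain B2m rose by 0.62 ± 0.12. H2-D1, Psme2 and Tapbpl lost their calls without day 3 (0.50, 0.55 and 0.93), and Psme2 and Tapbpl also without day 5 (0.46 and 0.58). Psme1 was 0.60 without day 3, where it was not called. H2-Q6 (1.09) and Erap1 (-0.073) did not pass.

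Of 9 tested MHC class II genes, 5 were higher and none lower, with a median of 0.54. H2-Aa stood at 978, 900 and 1357 CPM against 661, 665 and 732 CPM, a log2 difference of 0.67 ± 0.11. A UMI of H2-Aa was found in 39.6% of members and 47.5% of other cells, and of Cd74 in 68.9% and 78.3%. H2-Ab1 (46.7% and 54.3%), H2-Eb1 (37.3% and 47.0%) and H2-DMa (58.0% and 64.7%) were likewise found in a smaller share of members. For each of these genes 5 cells held from 19.3% to 36.9% of the members' UMIs. Members were shallower, and the part of depth was not tested. In monocytes/macrophages alone 2 of 9 were called (H2-Aa and H2-DMa), and in the CD45+ libraries none of 8 by edgeR or DESeq2, although 7 of the 8 were higher at an unadjusted p under 0.05. Cd74 and H2-Ab1 lost their calls without day 3 (0.62 and 0.59) and without day 5 (0.31 and 0.39), H2-Eb1 without day 5 (0.45), and H2-DMa without day 1 (0.47) and day 5 (0.35). Ciita, the activator of class II transcription, had a log2 difference of 0.87 and did not pass.

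Classical monocytes are the Ly6C-high cells that enter from the blood. Of 10 tested marker genes, 5 were higher in interferon-high cells of the pool, 1 was lower and 4 did not pass, with a median of 0.56. Ly6c2, the gene of the Ly6C surface protein, stood at 666, 368 and 179 CPM against 115, 105 and 25.1 CPM. Its log2 difference was 2.41 ± 0.17 (edgeR adjusted p = 9.1e-07), and 2.47 in monocytes/macrophages alone. Plac8 stood at 2667, 1625 and 830 CPM against 748, 470 and 72.3 CPM (2.40 ± 0.27). Chil3 rose by 0.87 ± 0.15 and the chemokine receptor Ccr2 by 0.58 ± 0.11. Ccr2 was 0.43 and not called without day 5. Ly6c2 and Plac8 stood lower on each later day in both groups of cells. The counts were the same in monocytes/macrophages alone, a class for which Ly6c2 and Ccr2 were among the markers.

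None of the 10 was called in the CD45+ libraries by edgeR or DESeq2, and at an unadjusted p under 0.05 1 was higher and 3 were lower. Ly6c2 was lower in interferon-high cells on day 1 (70.1 against 483 CPM) and at steady state (6.29 against 27.0 CPM), and higher on days 3, 5 and 7 (973, 503 and 433 against 356, 153 and 175 CPM). Its fitted difference there was 0.75 ± 0.45. The difference between the experiments in Ly6c2 did not pass in a joint fit with an interaction term (edgeR adjusted p = 0.96).

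The lower classical monocyte gene was Fn1, fibronectin, at 1763, 955 and 856 CPM against 3296, 1491 and 954 CPM. Its log2 difference of -0.53 ± 0.13 was not called without day 1 (-0.34) or without day 3 (-0.48). None of 10 nonclassical monocyte genes passed by edgeR or DESeq2 (median 0.12), and 1 was higher at an unadjusted p under 0.05. Fabp4, a fatty acid carrier, had the highest difference (0.95), but 59.0% of its UMIs in the members came from 1 neutrophil-type cell of day 1. In monocytes/macrophages alone Fabp4 was lower, at -1.12. Fcgr1, the high-affinity IgG receptor CD64 of monocytes and macrophages, was the only called gene among 11 complement and pan-macrophage genes (median -0.12), and 1 of 11 was called in monocytes/macrophages alone (-0.093). It stood at 753, 748 and 765 CPM against 325, 274 and 235 CPM, a log2 difference of 1.50 ± 0.11 (edgeR adjusted p = 2e-06), and was higher in 5 of 5 CD45+ libraries (1.33 ± 0.17). The complement genes C1qa, C1qb and C1qc had log2 differences from -0.26 to -0.17 and did not pass.

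Genes of resident and of lipid-handling repair macrophages lay lower or did not pass. Of 8 tested resident genes, 1 was lower (median -0.34), as was 1 of 8 in monocytes/macrophages alone (-0.31). Igf1, a growth factor for heart tissue, stood at 13.3, 28.6 and 84.7 CPM against 7.79, 63.5 and 190 CPM. Its log2 difference of -1.01 ± 0.19 was not called without day 3 (-0.85) or day 5 (-0.81). Lyve1 and Vsig4, defining resident genes, had 0 UMIs in interferon-high cells, which allows up to 0.638 CPM, and Timd4 had 3. Lyve1 and Vsig4 were the only 2 of the 11 listed genes at 0 in the members, and none was at 0 in the other cells. The other cells held 75413265 UMIs against 4705473 in the members, so a gene rare in both groups can be at 0 in the members alone. The list summed to 320, 948 and 1603 CPM in the members on days 1, 3 and 5, and to 607, 1105 and 2148 CPM in the other cells.

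Of 14 genes of lipid handling and repair, 5 were lower and none higher, with a median of -0.34. Spp1, osteopontin, had the largest difference at 4153, 6844 and 5623 CPM against 8997, 9630 and 8706 CPM, a log2 difference of -0.71 ± 0.12 (edgeR adjusted p = 0.0025). Trem2, the lipid receptor, stood at 113, 390 and 669 CPM against 194, 541 and 888 CPM (-0.49 ± 0.11). Trem2, Gpnmb, Apoe and Ctsd were lower on each day, and all 4 lost their calls without day 3 (-0.52, -0.56, -0.48 and -0.46) and without day 5 (-0.56, -0.55, -0.52 and -0.41). Monocytes/macrophages alone had 6 of the 14 lower, with Lpl added. None of the 14 was called in the CD45+ libraries by edgeR or DESeq2, while 7 were lower at an unadjusted p under 0.05, and Spp1 was lower in 5 of 5 (-1.11 ± 0.33, edgeR adjusted p = 0.11). None of 15 proliferation genes passed in the pool by edgeR or DESeq2 (median -0.36). None of 15 passed in monocytes/macrophages alone either (-0.29). At an unadjusted p under 0.05 5 were lower in all members, and Rrm2 (-1.16) and Tk1 (-0.88) were lowest.

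**Figure D4:**
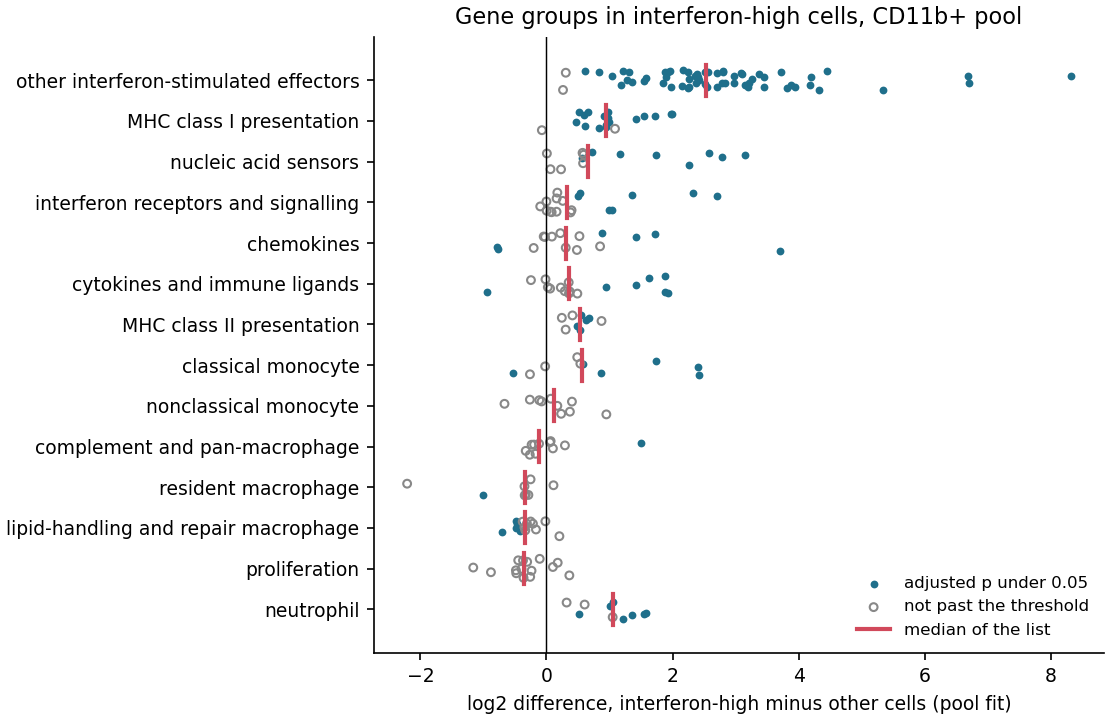
Log2 difference between interferon-high and other cells in the pool fit for every tested gene of 14 lists; filled points have an edgeR adjusted p under 0.05, open points do not, and red bars are list medians. Effectors have a median of 2.53 and MHC class I genes of 0.95, while resident, repair and proliferation lists have medians from -0.36 to -0.34.

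Neutrophil genes were higher in the pool's members, of which 22.2% were neutrophil-type cells. Of 10 tested, 7 were higher, with a median log2 difference of 1.05. Their summed level was 6034, 2198 and 1074 CPM in interferon-high cells and 2044, 1208 and 385 CPM in the others. In monocytes/macrophages alone 1 of 8 was higher (Il1r2) and the median was 0.29. The class call itself used neutrophil genes such as Il1r2, Mmp9, Hdc and Cxcr2. Leaving out the cells high in them lowers these genes by the choice itself. S100a8, a calcium-binding alarmin, had a log2 difference of 1.54 ± 0.18 in all members and 0.62 in monocytes/macrophages alone, where it did not pass. Mmp9 changed from 0.51 ± 0.11 to -0.50. Hdc, Cxcr2 and Mmp9 were also lost without day 3 (0.49, 1.20 and 0.52) and without day 5 (1.13, 1.20 and 0.51).

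Markers of other cell types were low. Dendritic cell genes summed to 50.4, 42.9 and 15.1 CPM in interferon-high cells and 52.2, 28.8 and 27.8 CPM in the others. None of their 2 tested genes passed by edgeR or DESeq2 (median -0.22), with 1 higher and 1 lower at an unadjusted p under 0.05, and Clec9a and Siglech had 0 UMIs in the members. Lymphocyte genes summed to between 2.97 and 8.12 CPM in the members, with Cd3d, Cd3e, Cd3g, Cd79a, Gzma and Ncr1 at 0, and their 1 tested gene did not pass. The 1 dendritic and 1 lymphocyte gene tested in monocytes/macrophages alone did not pass. Of 12 genes of non-immune heart cells 3 were tested and 2 were higher, the endothelial genes Kdr (2.42 ± 0.35) and Cdh5 (2.65 ± 0.61). A single neutrophil-type cell of day 1 held 62.2% of the members' Cdh5 UMIs, and without day 1 the difference was 1.51 and not called. The class call had no class for non-immune cells, so the identity of this cell is open. Neither gene was tested in monocytes/macrophages alone, where the 1 tested gene of the list did not pass (0.41). Of 2 genes of the list tested in the CD45+ libraries, none was higher and Hba-a1, a haemoglobin chain, was lower (-4.61), with a median of -1.94. The list summed to 132, 36.8 and 23.2 CPM in the members and 28.2, 19.2 and 27.2 CPM in the others, and its part in other results was not tested.

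Of the 92 lower genes, 14 were at least 2-fold lower, and the lowest difference was -2.09. The 15 described here had 1 sign on all 3 days and a mean of at least 50 CPM in the other cells, which leaves out Igf1. Mt2, a metal-binding metallothionein, had the lowest difference of the 15 at 40.0, 46.4 and 42.4 CPM against 220, 117 and 97.3 CPM, a log2 difference of -1.52 ± 0.18 (edgeR adjusted p = 0.00016). The groups did not overlap. Timp1, an inhibitor of matrix proteases, stood at 68.2, 38.6 and 39.5 CPM against 196, 65.1 and 59.1 CPM (-0.88 ± 0.16). Ppp1r14b, an inhibitor of protein phosphatase 1, stood at 127, 131 and 132 CPM against 249, 236 and 200 CPM (-0.75 ± 0.11).

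Of these 15, Ppp1r14b was the only gene also called lower in the CD45+ libraries (-0.79 ± 0.16, edgeR adjusted p = 0.0086, lower in 5 of 5). Beside Il6, Ccl24, Cxcl1 and Spp1, described above, the others were Pmp22, Wwp1, Pa2g4, Nxpe5, Ipo5, Tspan4, Gcsh and the replication gene Pclaf, with log2 differences from -0.71 to -0.56. Each of these 8 lost its call without at least 1 of the 3 days. Pclaf was 0.054 at a limit of 0.30% for the rule.

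Surface proteins were read from antibody counts in the same cells. Median Ly6C antibody counts were 128.5, 95 and 85 UMIs in interferon-high cells on days 1, 3 and 5 and 132, 80 and 69 UMIs in the others, ratios of 0.973, 1.19 and 1.23. The quartiles of the groups overlapped on each day. The mean log2 ratio was 0.17 for all members and 0.47 in monocytes/macrophages alone, and -0.086 among cells with under 100 Ly6G antibody UMIs. Ly6C ratios were 1.73, 1.11 and 1.20 at a rule limit of 0.30%, and 1.38, 1.52 and 1.16 with cells thinned to 5000 UMIs. The log2 difference of 2.41 for Ly6c2 transcripts is an unlike measure, a fit on UMIs summed over cells. Ly6c2 had a UMI in 46.2% of members and 25.3% of other cells, and 5 cells held 29.7% of the members' Ly6c2 UMIs. The CD64 antibody had medians of 32, 31 and 51 UMIs against 30, 39.5 and 49 UMIs. The medians in monocytes/macrophages alone were 38, 54.5 and 52 UMIs against 34.5, 49 and 51 UMIs. These are ratios of 1.10, 1.11 and 1.02, and the quartiles of the groups overlapped on each day. The CD64 ratios were 1.13, 1.11 and 1.10 with cells thinned to 5000 UMIs. They were 0.667, 1.09 and 0.971 among cells with under 100 Ly6G antibody UMIs, and 1.05, 0.590 and 1.16 at a rule limit of 0.30%. Antibody against the class II protein I-A/I-E had medians of 58, 68 and 107 UMIs against 68, 87 and 95 UMIs.

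The F4/80, CD11c, CCR2, CX3CR1, MSR1 and TIM4 antibodies had ratios between 0.750 and 1.05 over the 3 days, and between 0.745 and 1.05 in monocytes/macrophages alone. With 3 hashtags no two-sided permutation p under 0.25 can be reached, so no test was made. Median gene UMIs of the members were lower on each day, and the part of depth in these ratios was not tested.

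Levels within the interferon-high cells were also compared between days 1 and 5. Of 814 genes with at least 200 CPM on one of these days, 17 were at least 4-fold higher on day 5 (2.09%) and 30 at least 4-fold higher on day 1 (3.69%), with no test, since each day is 1 hashtag. Serpinb2, an inhibitor of plasminogen activators, stood at 259, 1.73 and 0 CPM on days 1, 3 and 5, with 0 of 1723164 UMIs on day 5, which allows up to 1.74 CPM. Retnlg, a neutrophil gene, stood at 208, 9.53 and 4.06 CPM. A single neutrophil-type cell of day 1 held 67 of its 169 UMIs in the members, and the neutrophil share of the members was 18.8% on day 1 and 8.20% on day 5. Their part in this difference was not tested. Areg, an epidermal growth factor receptor ligand, stood at 639, 72.4 and 18.0 CPM. Saa3, an acute phase protein, stood at 1088, 162 and 30.8 CPM and Ccl24 at 473, 23.8 and 12.2 CPM.

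The 5 genes with the highest ratio of day 5 to day 1 were Ccl8, Fcrls, Ctsk, Gdf15 and Gpnmb. Fcrls stood at 1.48, 128 and 340 CPM in interferon-high cells, and at 33.9, 262 and 385 CPM in the others. Ctsk, a collagen-degrading cathepsin, stood at 4.45, 11.7 and 343 CPM against 4.00, 13.7 and 148 CPM. Gdf15 stood at 11.9 CPM on day 1 and 424 CPM on day 5, and Gpnmb at 29.7 and 631 CPM. All 10 of these genes moved in the same direction between days 1 and 5 in the other cells.

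The CD45+ libraries gave the same contrast in other mice, with the rule applied anew. Of 7226 genes tested outside the rule, 205 were higher (2.84%) and 21 were lower (0.291%) over 5 libraries. Of the 205, 193 were also higher in the pool, which is 94.1% of the CD45+ calls and 38.6% of the 500 pool calls. Of the 433 pool calls tested there, 421 had a positive difference, with a median of 0.70 against 0.89 in the pool for the same genes. Over all genes tested in the CD45+ libraries the median was -0.035. Of the 21 lower genes, 4 were shared, which is 19.0% of the CD45+ calls and 4.35% of the 92 pool calls. Without the day 1 library 68 genes were lower, and without any other library 16 to 24.

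Cxcl10 shows the range between libraries. It stood at 661, 3025, 293, 501 and 390 CPM in interferon-high cells at steady state and on days 1, 3, 5 and 7, and at 68.0, 218, 49.3, 54.4 and 89.4 CPM in the other monocytes/macrophages. The log2 difference was 3.00 ± 0.20 (edgeR adjusted p = 1.5e-07). The day 1 value in the CD45+ libraries exceeded the 159 CPM of day 1 in the pool, where the level was the lowest of the 3 days.

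S100a8 and S100a9 were the 2 genes called in opposite directions. S100a8 was at 2876, 795 and 419 CPM against 913, 450 and 101 CPM in the pool. There 67.9% of members and 66.9% of other cells had an S100a8 UMI. In the pool's members 5 cells held 46.4% of the S100a8 UMIs and 49.9% of those of S100a9. For each gene the top cell was a neutrophil-type cell of day 1, with 12.1% and 13.3%. In the CD45+ libraries S100a8 was lower in interferon-high cells of all 5 (-0.91 ± 0.19, edgeR adjusted p = 0.014), at 3801 against 11990 CPM on day 1. S100a9 was 1.58 ± 0.18 in the pool and -0.69 ± 0.16 in the CD45+ libraries. The CD45+ cells were monocytes/macrophages by their own markers, while the pool's members included neutrophil-type cells. With such cells left out of the pool, S100a9 was 0.25 and S100a8 stayed positive, and neither passed. The part of neutrophil-type cells in the opposite calls was not tested. The difference between the experiments did not pass in the joint fit for S100a8 or S100a9 (edgeR adjusted p = 0.59 and 0.84), which does not show that the experiments are alike. That fit called 4 of 9418 genes (0.0425%).

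**Figure D5:**
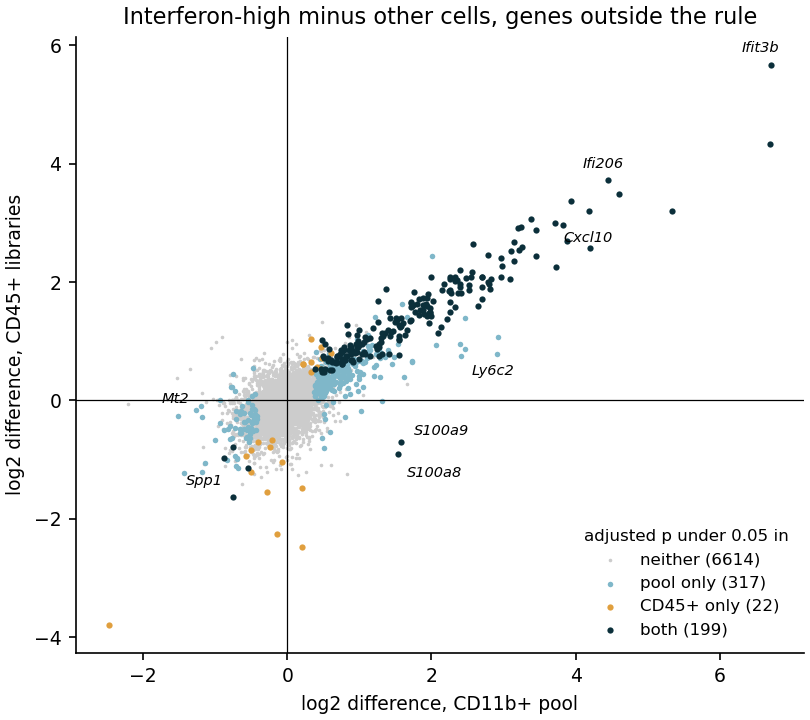
Log2 difference between interferon-high and other cells in the CD11b+ pool (horizontal) and the CD45+ libraries (vertical) for 7152 genes outside the rule tested in both, coloured by where the edgeR adjusted p was under 0.05. Genes called in both (199) lie along a rising band, with S100a8 and S100a9 below it at positive pool and negative CD45+ values.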

How the data were processed

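Per the labels, CD11b+ heart cells were hashed by day, stained with 10 surface antibodies and run with 10x Genomics version 3 chemistry, and the CD45+ libraries with version 2. The deposited values are UMI counts per gene or antibody and barcode, not normalized, made by Cell Ranger (3.0.2 per the pool's file header, not given for the CD45+ libraries in the sources used here) on mm10. Members and gene lists were chosen with earlier results of these data known. Doublets across hashtags were removed by requiring a top hashtag of at least 10 UMIs and 3 times the second; no doublet caller was run. A cell took the class with most marker UMIs (at least 3). UMIs were summed per day or library and group (at least 10 cells; 674527 to 39315178 UMIs in the pool, 158912 to 7339810 in the CD45+ sums) and fitted in R 4.3.3 with edgeR 4.0.16 (filterByExpr, TMM, glmQLFit, glmQLFTest, two-sided, Benjamini-Hochberg over all genes, threshold 0.05), with the hashtag or library as a block, since both groups come from the same mice. P-values rest on the spread over days or libraries, with each gene's variance drawn toward that of other genes, and that spread may be technical. Standard errors are the difference over the root of F. On simulated data of the pool's 9558 genes and the CD45+ libraries' 7237, with a variation of 10.6% and 15.0%, 94% and 89% of 200 genes changed by 2 log2 were recovered, with 2.59% and 4.30% of calls false. The simulation gave all genes the same variation and did not choose cells on their counts. It gives no rates for the real pool calls, whose median log2 differences were 1.00 (higher) and -0.63 (lower). Named genes were the 15 highest and 15 lowest differences past the threshold with 1 sign on all 3 days and at least 50 CPM where higher (mitochondrial, ribosomal, haemoglobin, Gm and Rik names left out), and up to 8 called genes per list, beside list members given for contrast. Promoters were matched by symbol or synonym (81.4% of genes called higher). DESeq2 1.42.0 was an alternative. Python 3.11.15, scipy 1.17.1 and matplotlib 3.10.9 were used. Of 63 effectors and 17 chemokines, 1 each was not in the annotation.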

Additional observations from a re-analysis of the deposited data

Results flagged for a closer look

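In 4 genes the difference between interferon-high and other monocytes/macrophages differed between the experiments in a joint edgeR fit of the pool and the CD45+ libraries with an interaction term (4 of 9418 genes, 0.0425%), an analysis chosen after seeing the data. Ccl17, a dendritic cell chemokine, differed by -8.41 on the log2 scale (pool minus CD45+, edgeR adjusted p = 3.8e-05). It had 1 UMI in the pool's 161 monocyte/macrophage members and 207 UMIs in 10 of 299 members of the CD45+ libraries, of which 199 came from day 1. Cxcl5 differed by 6.55 (adjusted p = 0.043), with 105 UMIs in 6 of the 161 members, 66.7% of them in 1 cell, and 1 UMI in the CD45+ members. Ppbp, a platelet chemokine, differed by 2.75 (adjusted p = 0.00016), and 1 cell held 33.9% of its 502 UMIs in the pool's members. Lcn2, an iron-binding neutrophil protein, differed by 2.69 (adjusted p = 5.5e-05), with 198 UMIs in 33 of the 161 members.

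The share of interferon-high cells moved in opposite directions from day 1 to day 5, by -12.9 percentage points in the pool and by 3.71 percentage points in the CD45+ libraries. Each day was 1 hashtag or library, and this difference was not tested.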

How the results depend on the processing

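Counts of higher and lower genes in the pool (500 and 92) were 154 and 1 without the hashtag as a replicate block, 162 and 7 with the Ly6G antibody under 100 UMIs, and 231 and 22 with cells thinned to 5000 UMIs. Leaving out each day gave 313 to 533 higher and 23 to 74 lower genes. DESeq2 called 22 lower, no filter 235 and a limit of 0.10% 174. In the CD45+ libraries (205 and 21) they were 69 and 1 without the library as a replicate block and 354 and 110 with no filter, and leaving out each library gave 138 to 284 and 16 to 68. A limit of 0.30% gave pool shares of 7.58%, 4.31% and 2.53% on days 1, 3 and 5, and CD45+ shares of 1.33%, 5.38%, 5.63%, 6.10% and 1.78% from steady state to day 7. A limit of 0.10% gave 12.2% and 6.51% on days 3 and 5 of the pool, and 5.14%, 20.1%, 23% and 10.1% in the CD45+ libraries at steady state and on days 3, 5 and 7. Ly6G under 100 gave 22.3% and 2.73% on days 1 and 5, and own-marker monocytes/macrophages 6.71% on day 3. Thinning to 2000 UMIs (in the pool added after seeing the data) gave 11.6% and 5.82% on days 3 and 5, 10.3% and 5.70% for own-marker cells, and 5.44%, 18.9%, 19.6% and 8.63% in the CD45+ libraries at steady state and on days 3, 5 and 7. Of 144 named called genes, 71 kept their call in every alternative that gave a value and 105 in every leave-one-out fit. Signs turned in Ccl8 (-1.30), G0s2 (-0.14), Ccl24 (0.73) and Il6 (0.68) with Ly6G under 100, in Mmp9 with own-marker cells (-0.50) and thinned (-0.033), in Pclaf at 0.30% (0.054), and in Ccl24 at 0.10% (0.071) and thinned (0.65). The causes were not tested. Depth limits low genes: 3 UMIs are 4.45 CPM in the day 1 members.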
